A study of Homo sapiens with 57 samples.

Results

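The TE7 and TA7 forms of an Spt5 fragment were compared through the steady-state mRNA of the cells that carried them. Of the 57 samples of the series, 9 are mRNA libraries with transcript tables, and 6 of these are described here, 3 labelled TE7 and 3 labelled TA7. All 6 came from HCT116, a human colorectal carcinoma line, in which the cell's own Spt5 was an Spt5-HA-dhfr fusion, and all were grown without trimethoprim (minusTMP). The medium of both groups held hygromycin, G418 and blasticidin, and the other 3 mRNA libraries are labelled WT. Doxycycline (2 ug/ml, 24 hours) switched on a pCW57 construct for a shortened, Avi-tagged Spt5 (residues 1 to 820), and the CTR1 region of this protein had the form CTR1_TE7 in one group and CTR1_TA7 in the other. Each form sat in a cell line of its own, and the labels do not say whether a line was 1 clone, so the form and the line cannot be told apart. Nothing in the labels tells whether the 3 replicates were grown apart. The p-values below therefore speak of the spread among these libraries, which may be technical.

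Spt5 is an elongation factor that stays with RNA polymerase II from the promoter-proximal pause to the end of the gene. Its CTR1 region holds repeats with threonine followed by proline, which the kinase P-TEFb phosphorylates when polymerase enters productive elongation. TA and TE are the usual shorthand for threonine changed to alanine, which cannot be phosphorylated, and to glutamate, which carries a negative charge as a phosphate does. The labels do not spell out the residues. A dhfr degron is a domain that is degraded unless trimethoprim is bound to it.

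The tables list 228715 transcripts by identifier and pair none of them with a gene, and 0 of the identifiers matched the gene tables used here. Results are therefore given for groups of transcripts defined by length and abundance, and for 4 single transcripts by identifier. The level of Spt5 itself, the markers of colon epithelium and of other cell types, and pathway gene lists were not analysed here. Lengths are those of the spliced transcript, not of the gene, and a length class holds its lower limit but not its upper one.

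The libraries held 68578355 to 73794335 estimated reads in TE7 and 65723341 to 90805283 in TA7, and 95938 to 99993 transcripts had reads in each. In a multidimensional scaling of the 6 libraries, TE7 took the positions 2.93, 3.0 and 1.67 along axis 1 (26.5% of variance). TA7 replicates 2 and 3 were at -3.16 and -3.84, and TA7 replicate 1 was between the groups at -0.61. The 100 most abundant transcripts took 22.34% ± 0.762 of reads in TE7 and 22.17% ± 0.333 in TA7 (SD, n = 3), and these groups overlapped. Libraries measure shares of a total, so fewer cells and less RNA per cell cannot be told apart, and neither can a fall in some transcripts and a rise in the rest.

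Long transcripts took a smaller share of the TE7 libraries than of the TA7 libraries, and short ones a larger share. Of 71596 transcripts tested, 4673 differed (6.53%), 2499 of them higher in TE7 (3.49%) and 2174 lower (3.04%), by edgeR's quasi-likelihood test with Benjamini-Hochberg adjusted p under 0.05 and n = 3 per group. The transcripts that were lower had a median length of 4512.5 bases and those that were higher 1750 bases, against 1645 bases over all tested. Those with 4000 bases or more were 15.4% of the tested, 56.8% of the lower and 9.28% of the higher transcripts. By median, lower calls were also the larger ones, with a log2 change of -0.88 against 0.61 for the higher. Calls of 2-fold or more numbered 1578 (2.2%), of which 942 were lower (1.32%) and 636 higher (0.888%). At a mean of 5 CPM or more (counts scaled to a common library size), 337 lower and 218 higher calls among 19827 transcripts were of 2-fold or more. Among all calls, 419 were transcripts at 0 in every library of 1 group, whose change was set at a bound. These medians and 2-fold counts thus rest partly on that bound and on scarce transcripts.

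How many transcripts passed depended strongly on single libraries. The count dropped to 61 when TE7 replicate 2 was left out, to 1084 for TE7 replicate 1 and to 1116 for TE7 replicate 3. Leaving out TA7 replicate 2 or 3 gave 685 or 425, and leaving out TA7 replicate 1, the library nearest to TE7, gave 4421. A fit that took its spread from all 9 mRNA libraries called 1011 higher and 1400 lower, so which direction held more calls was not stable. The shift by length below depended far less on the library left out.

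Among transcripts of at least 5 CPM the median change was near level below 2000 bases and went down with length above that. Levels are in CPM (counts scaled to a common library size), and the medians in this paragraph are over transcripts of at least 5 CPM, for which the median log2 change over all lengths was 0.05, with 10.2% called higher and 7.69% called lower of 19827. Under 500 bases the median log2 change was 0.25, and 47 of 249 transcripts were called higher and 2 lower. At 500 to 1000 bases it was 0.24, with 406 of 2401 called higher and 31 lower. At 1000 to 2000 bases it was 0.22, with 676 higher and 66 lower among 4233. The class of 2000 to 4000 bases was near balance, with a median of 0.07, 711 higher and 364 lower among 7083 (10.0% and 5.14%), a higher share close to that over all lengths. Its sign depends on the scale, since the median was 0.01 with library size alone and -0.05 for the ratio of mean TPM + 1.

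Above that length the direction turned. At 4000 to 8000 bases the median log2 change was -0.18, and 749 of 4809 transcripts were called lower and 175 higher. At 8000 bases or more it was -0.4, with quartiles of -0.73 and -0.16, and 312 of 1052 were called lower and 14 higher. Within this last class, divided further after its values were seen, the medians were -0.38 at 8000 to 10000 bases, -0.42 at 10000 to 12000 and -0.47 at 12000 or more, with 569, 246 and 237 transcripts. Over all 71596 tested transcripts the medians of the short classes were less even. They were 0.15 under 500 bases, 0.02 at 500 to 1000, 0.11 at 1000 to 2000 and 0.01 at 2000 to 4000. The long classes were lower there too, with -0.21 at 4000 to 8000 bases and -0.43 at 8000 or more. In limma on log2(TPM + 1), a scale that understates changes of low transcripts, the last of these was -0.25. The scatter of single transcripts by length shows the same turn, along with long transcripts that were higher in TE7 and short ones that were lower.

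**Figure D1:**
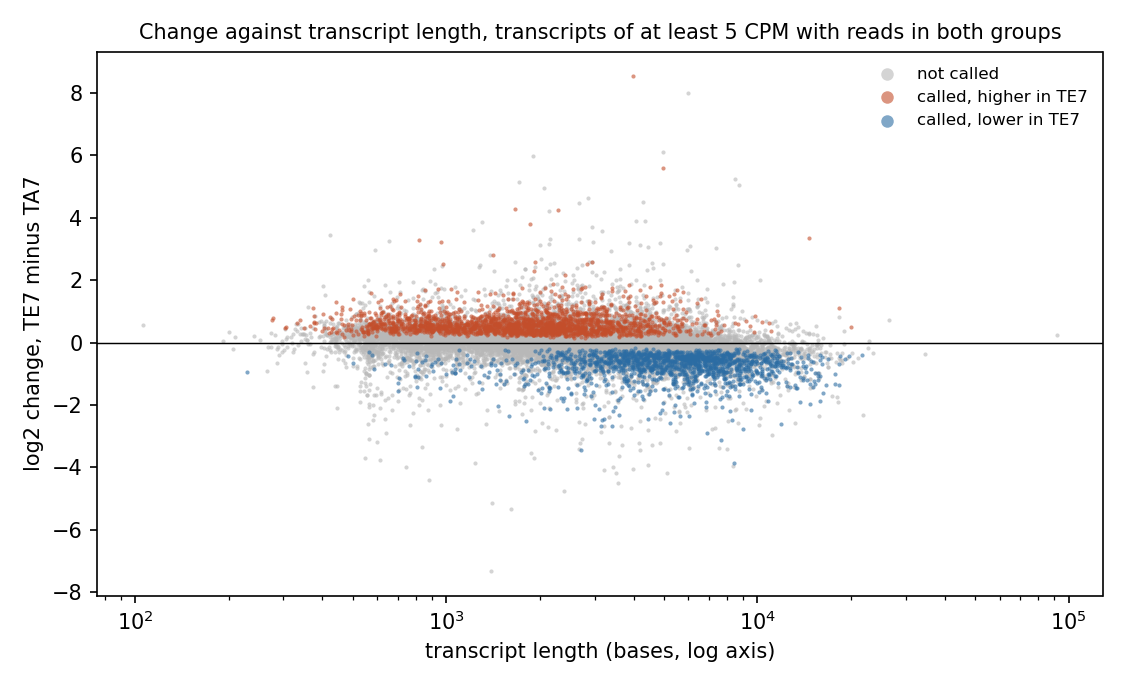
Log2 change between TE7 and TA7 against transcript length in bases (log axis), 1 point per transcript of at least 5 CPM with reads in both groups; red points were called higher in TE7, blue points lower, grey points not called. Lower calls gather at 4000 bases and over, and higher calls at shorter lengths.

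Every library followed its group. Each library's level was taken relative to the mean of the 6, as a median over transcripts of at least 5 CPM in a length class. At 8000 bases or more the medians on the log2 scale were -0.16, -0.22 and -0.19 in TE7 replicates 1 to 3, and 0.11, 0.27 and 0.22 in TA7 replicates 1 to 3. At 1000 to 2000 bases they were 0.11, 0.14 and 0.08 in TE7 and -0.04, -0.13 and -0.14 in TA7. The groups did not overlap in any of the 6 classes, and TA7 replicate 1 lay closest to TE7 in each class. These medians come from the same libraries as the calls and are a description of them, not a second test.

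**Figure D2:**
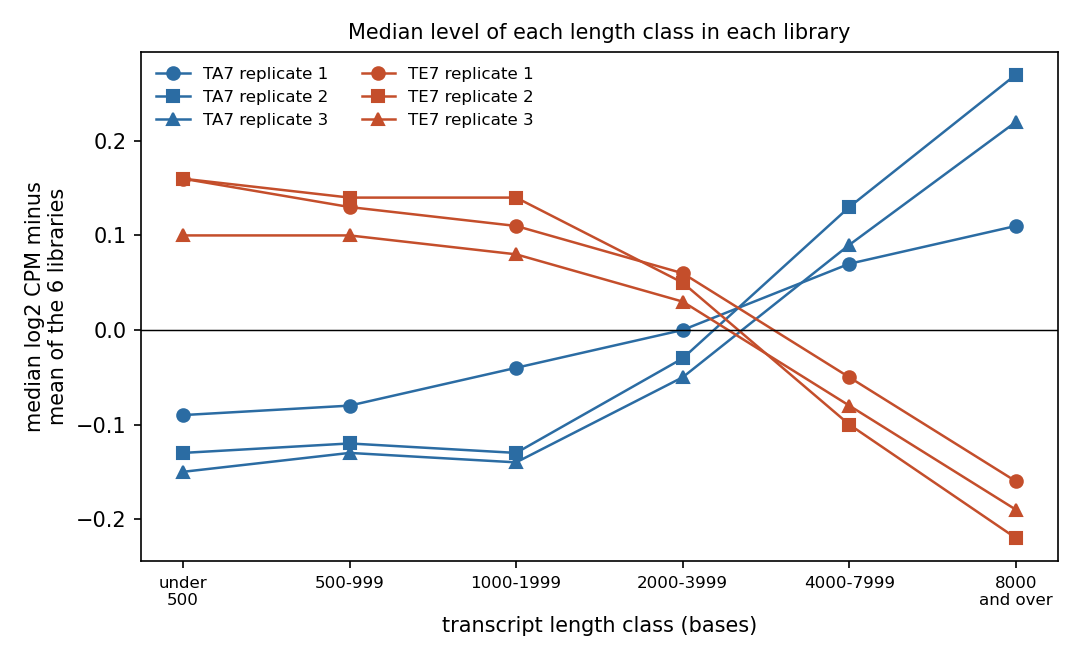
Median log2 CPM of each length class in each library, minus the mean of the 6 libraries, over transcripts of at least 5 CPM; red lines are TE7, blue lines TA7, and symbols mark the replicate number. From 1000 bases on all TE7 lines fall with length and all TA7 lines rise, and the groups change places between the classes of 2000 and of 4000 bases.

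Single transcripts showed the same split without use of the fitted spread. The counts below describe the same 6 libraries as the calls and are not a second test. Over all tested transcripts, the 3 TE7 libraries lay entirely below the 3 TA7 libraries for 16.6% and entirely above for 16.8%, 33.4% together. At 8000 bases or more TE7 lay entirely below TA7 for 858 of 1685 transcripts (50.9%) and entirely above for 86 (5.1%). At 4000 to 8000 bases these were 32.0% and 10.3%, and at 1000 to 2000 bases 11.8% and 22.1%. Of these 1685 transcripts, 348 passed the test as lower and 16 as higher.

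Calls were more frequent among abundant transcripts, and long transcripts had a median below 0 in every abundance class. Calls were made for 24.4% (higher) and 8.23% (lower) of 1628 transcripts at 100 CPM or more, and for 0.511% and 0.907% of 32089 below 1 CPM. Every call below 1 CPM was of 2-fold or more, against 6 of the higher and 5 of the lower calls at 100 CPM or more. Call shares thus depend on the size of change that could pass, and do not rank abundance classes by effect. At 8000 bases or more the median log2 change was -0.31 at 100 CPM or more (62 transcripts), -0.39 at 20 to 100 CPM, -0.47 at 5 to 20 CPM, -0.55 at 1 to 5 CPM and -0.49 below 1 CPM. At 1000 to 2000 bases it was 0.25, 0.24, 0.2, 0.09 and -0.08 in the same order. In each of the 5 abundance classes the longest transcripts had the lowest median, and below 1 CPM only those under 500 bases had a median above 0. Of the 100 most abundant transcripts, which had a median length of 1274.5 bases, 19 were higher in TE7, 3 were lower and 78 did not pass.

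**Figure D3:**
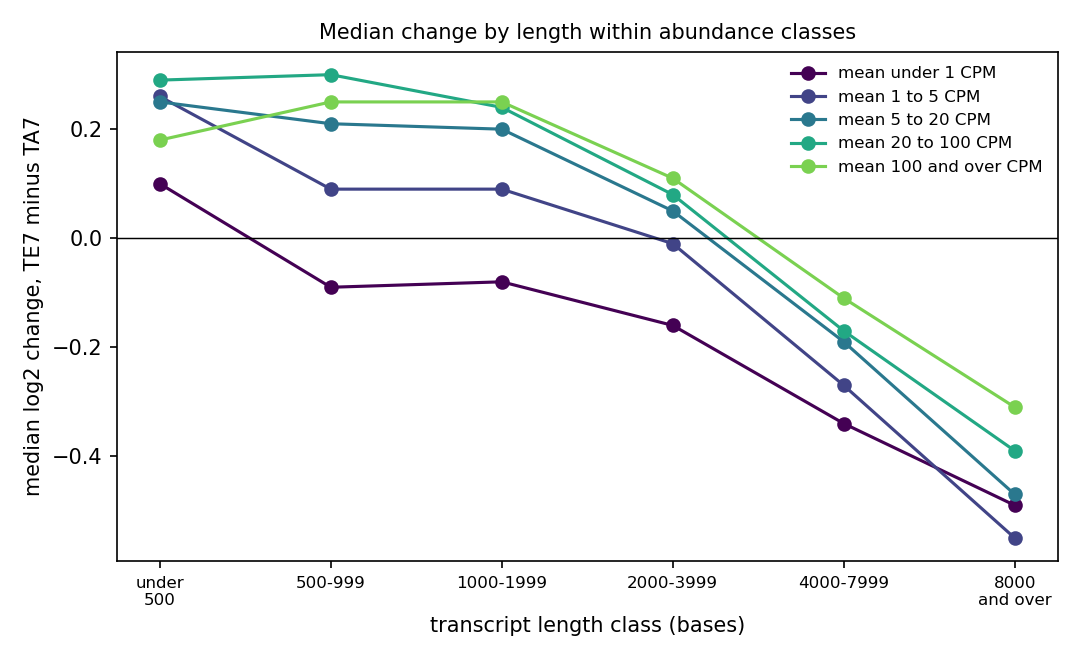
Median log2 change between TE7 and TA7 by transcript length class, with 1 line per class of mean abundance in CPM. All 5 lines end lower than they start, from between 0.1 and 0.29 under 500 bases to between -0.31 and -0.55 at 8000 bases and over.

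As a share of all reads, transcripts of 8000 bases or more took 3.556%, 3.388% and 3.627% in TE7 replicates 1 to 3 and 4.369%, 5.02% and 4.966% in TA7. Those of 4000 to 8000 bases took 16.39%, 15.6% and 16.31% in TE7 and 17.97%, 19.05% and 18.82% in TA7. Each TE7 library lay below each TA7 library in both classes, with mean differences of -1.26 and -2.51 percentage points. Reads went the other way at 500 to 1000 bases, with 18.3% ± 0.352 in TE7 and 17.22% ± 0.201 in TA7 (SD, n = 3), and the groups did not overlap. At 2000 to 4000 bases they overlapped, at 30.29% ± 0.301 and 29.84% ± 0.16. The groups were apart in 5 of the 6 classes, each with p = 0.1 in an exact two-sided permutation test, the smallest that 3 against 3 libraries allow, and with adjusted p = 0.133 over 12 such tests.

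Counted per transcript molecule rather than per read, the shift was also present. TPM divides reads by the effective length, the quantification's own estimate of the length open to reads. The mean transcript length weighted by TPM was 1339, 1313 and 1340 bases in TE7 replicates 1 to 3 and 1381, 1406 and 1396 bases in TA7. The difference of the means was -63.7 bases, and the groups did not overlap (exact permutation p = 0.1, n = 3). Transcripts of 4000 bases or more took 4.311% ± 0.165 of TPM in TE7 and 5.343% ± 0.251 in TA7 (SD, n = 3). For the ratio of mean TPM + 1, the median log2 change at 5 CPM or more was 0.09 at 1000 to 2000 bases, against 0.22 in reads, and -0.39 at 8000 or more, against -0.4. With library size alone the medians in reads were 0.16 and -0.46. The TPM ratio had no further scaling between libraries and an added 1, so these measures differ in more than the unit. The sign differed between reads and TPM for 5502 of the 71596 tested transcripts, and for 0 of the 4673 called.

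Fragment length moved with the groups. It was estimated from transcripts with no reads, as length minus effective length, which took a single value for 84.1% to 85.0% of those of at least 2000 bases. The estimate was 167, 167 and 168 bases in TE7 replicates 1 to 3 and 165, 149 and 158 bases in TA7. TA7 replicate 1 was within 3 bases of the TE7 libraries, and 22.34% of its reads came from transcripts of 4000 bases or more, against 19.94%, 18.99% and 19.94% in TE7. TA7 replicates 2 and 3, at 149 and 158 bases, had shares of 24.07% and 23.78%. For transcripts with reads, effective length could be shorter than fragment length alone would make it. At 8000 bases or more and 5 CPM or more, its median ratio to length was 0.907 to 0.931 per library. As an offset it therefore carries more than fragment length. With effective length as an offset in the fit, the median log2 change at 8000 bases or more was -0.46, against -0.43 without it over all tested transcripts of that length. Effective lengths in that class hardly differed between the groups (median log2 ratio -0.002 at 5 CPM or more). The offset could therefore move this median little, and the part of fragment length in the shift was not tested. RNA quality was not measured in these tables, and its part in the shift was not tested.

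**Figure D4:**
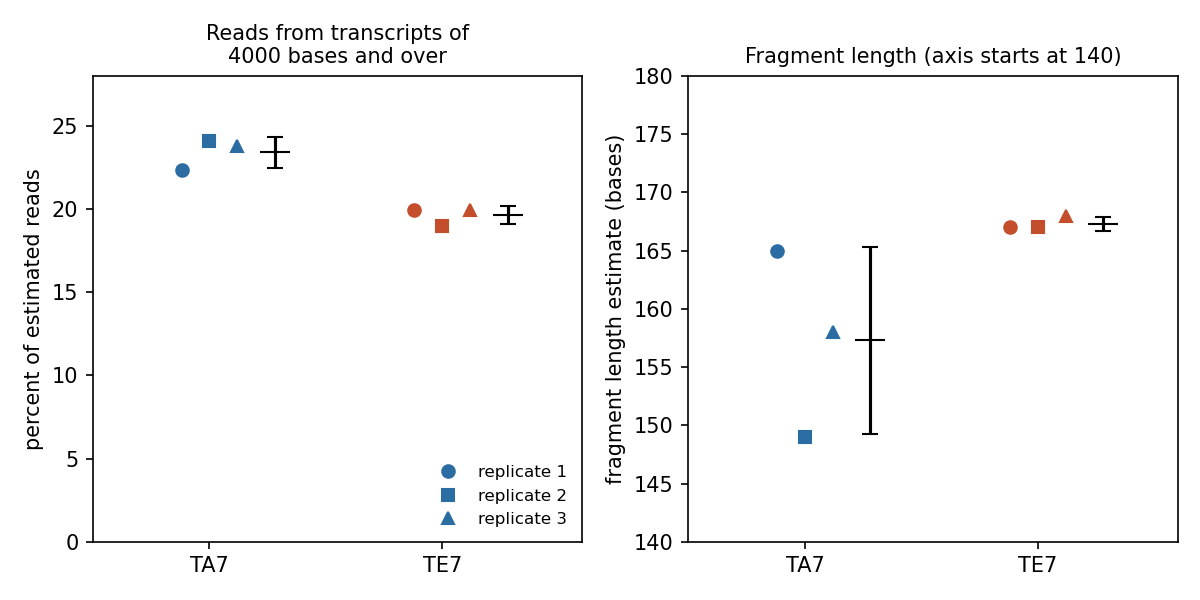
Left, percent of estimated reads from transcripts of 4000 bases and over in each library; right, fragment length estimate in bases, on an axis that does not start at 0. Blue symbols are TA7 and red symbols TE7, symbols mark the replicate number, and black bars give the mean and SD of 3 libraries; the shares do not overlap, and TA7 replicate 1 lies at 165 bases beside TE7 at 167 to 168.

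The 4 transcripts described singly were the 2 highest and 2 lowest log2 changes among 3531 that passed the test, had a mean of at least 5 CPM and at least 10 reads in each library, and did not overlap between groups. They span lengths from 1669 to 8393 bases. Each level is an estimate for 1 transcript, and the other transcripts of its gene were not examined. A change in level therefore cannot be told from reads divided differently among transcripts that share sequence. ENST00000526772.5_1, of 4966 bases, was at 40.4, 37.3 and 14.5 CPM in TE7 replicates 1 to 3 and at 0.392, 0.9 and 0.607 CPM in TA7. It was nearly absent from each TA7 library, with 26 to 83 reads, and TE7 replicate 3 was the lowest of its group. It was 48.1-fold higher in TE7, a log2 change of 5.59 ± 0.56 (SE) with edgeR adjusted p = 0.0101. This transcript passed in 13 of 17 alternatives. The edgeR adjusted p was 0.063 without TA7 replicate 3, 0.0554 without TE7 replicate 2 and 0.104 in the fit of 9 libraries.

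ENST00000415593.5_2, of 1669 bases, was at 74.1, 75.4 and 45.7 CPM in TE7 replicates 1 to 3 and at 5.66, 4.0 and 0.448 CPM in TA7. Its groups were far apart, but TA7 replicate 3 held only 31 reads against 375 and 369 in the other TA7 libraries. The log2 change was 4.27 ± 0.88 (SE) with edgeR adjusted p = 0.0488, at the edge of the threshold. It passed in 8 of 17 alternatives, and its adjusted p over all of them ranged from 5.92e-05 to 0.197. Leaving out TA7 replicate 1 or 2 or any TE7 replicate ended the call, with edgeR adjusted p of 0.0757, 0.158, 0.129, 0.147 and 0.112.

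ENST00000356577.10_6, of 8393 bases, was at 5.18, 4.16 and 4.4 CPM in TE7 replicates 1 to 3 and at 24.4, 69.5 and 104 CPM in TA7. The TE7 libraries lay close together, and TA7 replicate 1 was again the TA7 library nearest to them. The log2 change was -3.85 ± 0.55 (SE), with edgeR adjusted p = 0.0207. This transcript passed in 10 of 17 alternatives. The edgeR adjusted p was 0.0777 without TA7 replicate 2, 0.0673 without TA7 replicate 3, and 0.0804, 0.101 and 0.0853 without TE7 replicate 1, 2 or 3.

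ENST00000284311.5_2, of 2704 bases, kept its call in more alternatives than the other 3. It was at 1.88, 2.27 and 1.77 CPM in TE7 replicates 1 to 3 and at 22.2, 21.4 and 20.7 CPM in TA7. On the TPM scale it was at 0.957, 1.18 and 0.981 in TE7 and 12.6, 12.4 and 12.6 in TA7. Its values within each group differed little, and it was 10.9-fold lower in TE7, with a log2 change of -3.44 ± 0.13 (SE) and edgeR adjusted p = 0.00501. It passed in 16 of 17 alternatives, each fit without 1 library included, and failed only with the replicate number as a block, at adjusted p = 0.124.

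**Figure D5:**
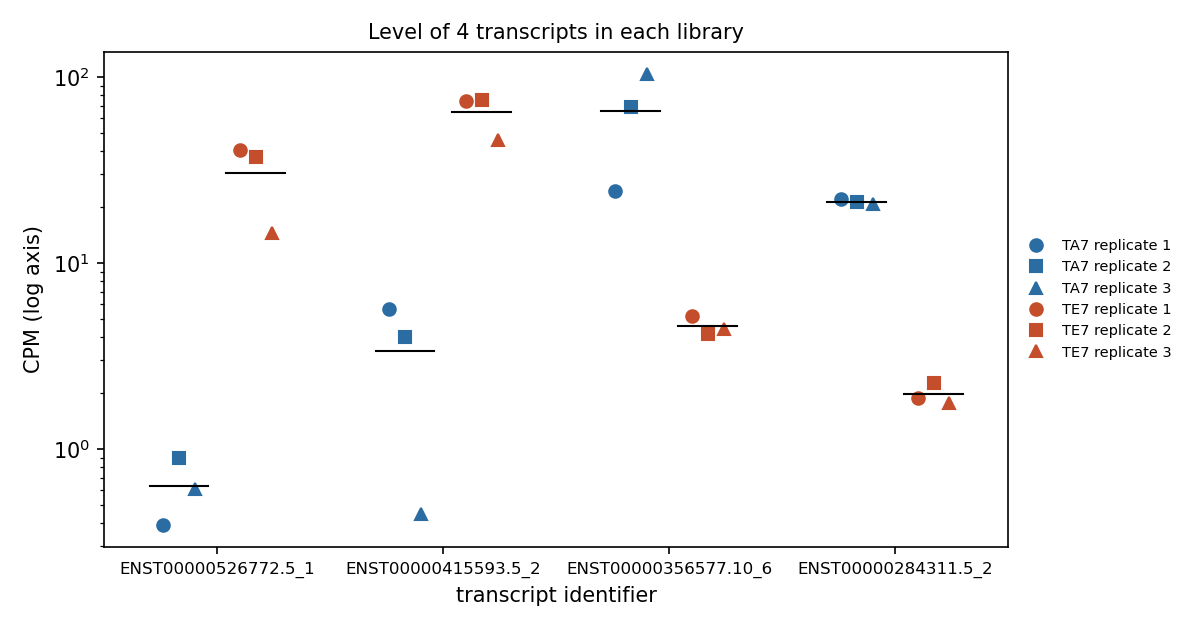
Level of 4 transcripts in CPM (log axis) in each library; blue symbols are TA7, red symbols TE7, symbols mark the replicate number and black lines the group means. The groups do not overlap for any of the 4, and ENST00000284311.5_2 lies at 20.7 to 22.2 CPM in TA7 and 1.77 to 2.27 in TE7.

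A set of transcripts was listed at 0 throughout one group and had reads throughout the other. With at least 10 reads in each library of the group that had them, 286 transcripts were at 0 in TE7 and 181 at 0 in TA7, of which 59 and 23 were of 4000 bases or more. With at least 100 reads, 70 were at 0 in TE7 and 59 at 0 in TA7. The median lengths of these 70 and 59 were 2392.5 and 2718 bases, and 18 and 16 were of 4000 bases or more. With at least 500 reads the numbers were 12 at 0 in TE7 and 11 at 0 in TA7. The 2 counts thus lay further apart with the lower read minimum. How many transcripts met each minimum in a group was not counted, so no share is given and an excess in either group cannot be read from them. Per library, 95938 to 98926 transcripts had reads in TE7 and 98794 to 99993 in TA7. Of all tested transcripts, 15.4% were of 4000 bases or more. These transcripts were chosen for their values, so the counts are a description with no test. Transcripts that share sequence divide reads between them in the quantification, and a transcript listed at 0 says nothing of the other transcripts of its gene.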

How the data were processed

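Per the submitters' processing notes, reads were handled with cutadapt 2.3 and Salmon 1.3.0, and hg19 is named. For the transcript set, library type and bias options, the sources used here give nothing. Per the labels' protocols, Trizol RNA (1 ug) was purified on oligo-dT. The authors' tables give estimated counts per transcript, unscaled, with shared reads divided among transcripts (12.8% to 13.8% of values above 0 were whole, tolerance 0.001). They also give deposited TPM, in which counts are divided by effective length and brought to the same sum in each library. Length and effective length, which the column headers name without a unit, were taken to be in bases.

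Estimated counts were rounded, filtered with filterByExpr of edgeR 4.0.16, which left 71596 transcripts with 99.46% to 99.64% of reads, scaled with TMM factors (0.967 to 1.03) and fitted to the 6 libraries with group as the only term (glmQLFit, glmQLFTest, Benjamini-Hochberg adjustment over all 71596, threshold 0.05). SE is the log2 change divided by the square root of F. Changes of the 460 tested transcripts at 0 in a whole group entered medians and fold counts at their bound against 3 reads per library. Per-library deviations used log2(CPM + 0.5). For shares and lengths, exact permutation tests (two-sided) were used. Precision covers counting and replicate spread; reads are not independent molecules. No 2 libraries were identical. The labels do not say whether a replicate number marks a shared culture or day. Deviations of same-numbered libraries correlated at -0.03, -0.105 and 0.112, and those of different numbers at -0.102 to 0.142. With so few libraries per group, these values cannot decide whether the numbers pair the samples. On simulated counts (66146 transcripts tested), 100 transcripts were changed 2-fold and 100 4-fold, all with a mean of at least 0.5 CPM. Of these, 4% and 15% were recovered, and 11.1% and 35.7% of those at 5 CPM or more, with 0 false calls. Far fewer transcripts were changed than the 4673 called in the data, which makes the adjusted threshold stricter. These shares therefore do not give the recovery in this comparison. Alternatives used DESeq2 1.42.0, limma 3.58.1, other scalings and filters, all 9 libraries, a replicate block, an effective length offset, and each library left out.

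The groups, length classes and lists were chosen with earlier results of these data known. The 4 named transcripts follow a rule: adjusted p under 0.05, mean of at least 5 CPM, at least 10 reads in each library, no overlap, largest log2 change, 2 per direction because no gene symbols were paired. Gene sums and gene lists were not run for that reason.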

Additional observations from a re-analysis of the deposited data

How the results depend on the processing

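The median log2 change at 8000 bases or more lay between -0.49, with library size alone, and -0.38, without TA7 replicate 2, in the 12 edgeR alternatives run for it. In limma it was -0.25 on log2(TPM + 1), where the added 1 shrinks changes of low transcripts, and -0.47 on log2(TPM + 0.1), and the difference in read share at 4000 bases or more kept its direction in all 10 (-4.65 percentage points without the 100 most abundant transcripts, -1.03 as a share of TPM, exact permutation p = 0.1 in each). Counts of calls moved much more. Against 4673 in all, DESeq2 gave 12049, no filter 2575, the fit of all 9 libraries 2411 and a test against a 1.5-fold change 233, fewer by its construction. For lower and higher calls at 4000 bases or more, 1234 and 232, the fit of all 9 libraries gave 827 and 128, and transcripts of at least 5 CPM only gave 2038 lower. Higher calls made up 53.5% of all calls, 44.0% with library size alone, 41.9% with all 9 libraries and 37.4% in limma on log2(TPM + 1). With the replicate number as a block, edgeR called 0 in all, and 0 lower and 0 higher at 4000 bases or more. The block left 2 residual degrees of freedom against 4 without it, and whether the numbers pair the samples is not known. At an unadjusted edgeR p under 0.05 there were 13203, against 16517 without the block. The calls of all 4 named transcripts ended with the block, at edgeR adjusted p of 0.124, 0.137, 0.141 and 0.124. Leaving out 1 library gave 61 to 4421 calls in all, 10 to 1056 lower and 3 to 215 higher at 4000 bases or more. The same fits ranged from -0.46 to -0.38 for the median at 8000 bases or more, -4.3 to -3.44 percentage points for the share of reads and 5.83 to 13.8 bases for the difference in fragment length, which was 10 in the full set. Fits with 2 libraries in a group pool the spread of all libraries. For the other shifts in counts the cause was not tested. Simulated 4-fold changes were recovered in 15% of those made and in 35.7% of those at 5 CPM or more. Far fewer transcripts were changed there than were called in the data, so these shares do not give the recovery here. A transcript without a call may still differ. Gene-level alternatives were not run, since no identifier was paired with a gene.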
